A study of Mus musculus with 2 samples.

Results

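The inner root sheath keratin genes are the keratins that mark the inner root sheath (IRS), the epithelial sleeve between the hair shaft and the outer root sheath (ORS). The members were chosen by symbol as Krt71, Krt72, Krt73 and Krt74, named as type II chains, and Krt25, Krt26, Krt27 and Krt28, named as type I chains. Of these 8 listed symbols, 7 matched a row among the 32285 genes of the count tables. Krt74, which the GENCODE mouse annotation lists as a transcribed unitary pseudogene, was not analysed here.

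A keratin filament is built from pairs of 1 type I and 1 type II chain, so a cell that builds filaments needs both kinds. The IRS is made of Henle's layer, Huxley's layer and a cuticle, and its cells arise from the proliferating matrix at the base of the hair follicle (HF). In the differentiated sheath Krt71, Krt25, Krt27 and Krt28 are known from all of these layers, whereas Krt72, Krt73 and Krt26 are known from the cuticle. Trichohyalin, encoded by Tchh, and the transcription factor Gata3 are further known markers of the sheath.

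The genes were measured by 3′ single-cell RNA sequencing of tdTomato-positive cells sorted from the dermal fraction of mouse back skin at postnatal day 1, after the epidermis had been peeled away. One library was labelled PADI4 WT and 1 library PADI4 cKO, in which K14-Cre was to delete a floxed Padi4 allele (Padi4 fl/fl). Both carried the K14-Cre driver and the tdTomato Ai14 reporter, so that the sort and the deletion were confined to cells with a history of keratin 14 promoter activity. The number and sex of the animals in each library are not stated in the sources used here, and the protocol names K14-Cre Padi4 fl/fl skin for both libraries.

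Padi4, the targeted gene, gave 99 unique molecular identifiers (UMIs) in PADI4 WT epithelium and 92 UMIs in the epithelial cells labelled PADI4 cKO. Scaled to 1000000 UMIs in all (CPM), these are 0.773 and 0.708, a log2 ratio of -0.13 (95% counting interval -0.55 to 0.30), so the counts show no loss of Padi4 RNA and the second library is named by its label throughout. The 3′ reads need not cover the deleted part of the gene, so this does not check the deletion itself. Xist without any Y-linked UMI was found in 26.7% of PADI4 WT cells but in 99.7% of those labelled PADI4 cKO. The libraries thus differed in the make-up of sex-linked transcripts as well as in genotype, and genotype and library cannot be told apart. The tables held 143938990 and 143945294 UMIs, and after filtering 8147 and 7440 cells remained, with medians of 14654 and 16187.5 UMIs per cell. Of the barcodes with at least 2000 UMIs, 17 occurred in both libraries. In what follows the value of the PADI4 WT library always comes first and that of the library labelled PADI4 cKO second. As each genotype had 1 library, animals could not be compared by any test, and every interval in the text covers counting error at the 95% level only.

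Cells were clustered without the 7 keratins, so that no cell group owes its name to them. One of 24 clusters was called IRS-like (595 and 472 cells), because 5 of the 8 IRS markers used for naming, Gata3, Tchh, Cux1, Ovol1 and Tgm3, were raised in it. Another was called germinative layer (GL)-like (731 and 767 cells) from 5 of 8 GL markers, Dlx3, Dlx2, Msx2, Msx1 and Lef1. The GL markers Hoxc13, Bambi and Bmp4 were not raised in it. Clusters 3, 11, 12 and 14 shared most markers with the GL list. Of that list 7 markers were raised in clusters 3 and 14, 4 in cluster 12 and 3 in cluster 11. Cluster 16, led by the companion layer keratin Krt75 and by Wnt11, shared Gata3, Tchh, Cux1 and Ovol1 with the IRS list. These 5 clusters were not named, because their leading genes held more markers of another list. Cluster 14 was led by the hair shaft genes Dsg4 and Krt35, cluster 3 by Ednra and Krtap8-1, cluster 12 by Shh and Scube1, and cluster 11 by Dlx4, Mt2 and Mt1.

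In the GRCm38 build all members lie on the minus strand in 2 tight groups. The type I genes Krt25, Krt26, Krt27 and Krt28 follow each other within 59.4 kb of chromosome 11 (chr11:99315516-99374903), and the type II genes Krt71, Krt72 and Krt73, with the pseudogene Krt74 between Krt71 and Krt72, lie within 68.4 kb of chromosome 15 (chr15:101733949-101802346). The 250 bases before the transcription start follow for the 5 members with enough UMIs to compare, in the order in which their RNA appeared, because the text that follows turns on their different timing. The sequences are RefSeq's for GRCm38.p6, written 5′ to 3′ on the sense strand. Capitals mark the letters GATAA on either strand, the core of the sites that GATA factors are known to bind, and TATAAA on the sense strand, the letters of a TATA box. Both motifs were chosen after the sequences were seen.
Krt28, chr11:99374904-99375153, minus strand: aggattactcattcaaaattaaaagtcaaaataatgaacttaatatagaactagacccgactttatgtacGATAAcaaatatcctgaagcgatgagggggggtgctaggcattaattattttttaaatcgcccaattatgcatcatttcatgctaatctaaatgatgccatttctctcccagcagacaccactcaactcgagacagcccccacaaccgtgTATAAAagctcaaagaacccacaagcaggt
Krt27, chr11:99351119-99351368, minus strand: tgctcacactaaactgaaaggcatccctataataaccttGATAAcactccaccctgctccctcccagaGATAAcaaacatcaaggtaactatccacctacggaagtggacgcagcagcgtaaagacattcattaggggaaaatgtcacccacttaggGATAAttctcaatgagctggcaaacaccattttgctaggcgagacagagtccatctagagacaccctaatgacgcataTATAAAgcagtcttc
Krt25, chr11:99322952-99323201, minus strand: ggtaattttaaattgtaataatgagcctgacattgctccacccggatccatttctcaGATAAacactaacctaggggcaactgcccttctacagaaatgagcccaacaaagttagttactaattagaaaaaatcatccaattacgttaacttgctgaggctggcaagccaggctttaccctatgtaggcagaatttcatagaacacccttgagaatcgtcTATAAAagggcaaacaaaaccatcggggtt
Krt73, chr15:101802361-101802610, minus strand: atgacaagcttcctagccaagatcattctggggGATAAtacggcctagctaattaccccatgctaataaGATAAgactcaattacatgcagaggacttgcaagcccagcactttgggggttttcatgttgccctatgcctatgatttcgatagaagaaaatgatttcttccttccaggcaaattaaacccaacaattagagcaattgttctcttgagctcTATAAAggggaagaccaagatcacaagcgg
Krt71, chr15:101743098-101743347, minus strand: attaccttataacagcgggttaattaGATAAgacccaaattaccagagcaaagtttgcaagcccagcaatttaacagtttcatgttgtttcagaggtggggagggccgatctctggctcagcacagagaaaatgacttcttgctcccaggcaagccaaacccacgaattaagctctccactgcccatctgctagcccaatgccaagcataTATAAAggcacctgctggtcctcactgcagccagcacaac

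TATAAA stood in the window of 6 of 7 members, against 8.12% of 27025 promoters of the same length, and lacked only in that of Krt72. GATAA stood in 5 of 7, all 5 shown, against 23.0% of all promoters. Krt27 held 3 copies and Krt73 held 2. Krt72 and Krt26, which like Krt73 are known from the cuticle, held none. The longest run of identical bases between any pair of members was 14 bases, ttgcaagcccagca, shared by the promoters of Krt71 and Krt73 and by no other promoter of the 27025. Between Krt28 and Krt27 the longest run was 9 bases, gataacaaa, which includes a GATAA of each. These matches are letters in a window and do not show that a factor binds there. At the other end of the transcripts, where these libraries were read, 11.9% of the 31-base words in the last 500 bases of Krt27 and 8.30% of those of Krt28 also occurred in another type I member. No such word of Krt71, Krt72, Krt73, Krt25 or Krt26 occurred in another gene, so assignment of reads between paralogs is least certain for Krt27 and Krt28.

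In IRS-like cells the type I chain Krt28 was the most abundant of the IRS keratins. Krt72 and Krt26, which like Krt73 are known from the cuticle, were close to the limit of detection. A UMI stands for 1 molecule whatever the length of the transcript, so the levels of different genes can be set side by side. Krt28 reached 1813 CPM (1786 to 1839.7) and 1697 CPM (1669 to 1725), and Krt25 followed with 1131 CPM (1110.3 to 1153) and 948 CPM (927 to 969). The type II chain Krt71 stood at 635 CPM (619 to 651) and 328 CPM (316 to 341), and Krt73 at 585 CPM (569.9 to 601) and 532 CPM (516 to 548). Krt27 was the lowest of the 5 with 287 CPM (276 to 298) and 236 CPM (226 to 247). A single PADI4 WT cell held 1186 of the 6097 Krt71 UMIs. Without this cell, an alternative added after seeing the data, Krt71 stood at 513 CPM (498 to 527) in the PADI4 WT library, below Krt73 as in the other library. Krt28, Krt25 and Krt27 kept their places in both.

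Krt72 gave 13 and 11 UMIs in all IRS-like cells together, 1.35 CPM (0.721 to 2.32) and 1.32 CPM (0.658 to 2.36). Krt26 gave 6 and 7 UMIs, 0.625 CPM (0.229 to 1.36) and 0.838 CPM (0.337 to 1.73). The few Krt72 UMIs lay almost wholly in cells with IRS markers, since cluster 16 held a further 7 and 8 of the 21 found in each library. Those of Krt26 did not: of 35 and 68 UMIs over all epithelial cells, 65.7% and 70.6% lay in the GL-like cells and clusters 3, 11, 12, 14 and 16. With so few UMIs neither gene could be placed in an order of onset or compared between libraries.

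At full depth the type I chains Krt28, Krt25 and Krt27 were found in more IRS-like cells than the type II chains Krt73 and Krt71. A Krt28 UMI was present in 97.5% and 97.2% of IRS-like cells, a Krt25 UMI in 81.8% and 79.0%, and a Krt27 UMI in 79.7% of cells in both libraries, although Krt27 had the lowest CPM of the 5. Krt73 was found in 50.6% and 53.4% of the cells and Krt71 in 45.2% and 42.4%. The UMIs of these type II chains thus lay in fewer cells. The 5% of IRS-like cells with most Krt71 held 65.9% (58.6% without the cell named above) and 50.5% of all its UMIs, whereas the corresponding 5% held 15.6% and 16.5% of the UMIs of Krt28. For Krt73 this share was 38.7% and 36.0%, for Krt25 41.0% and 31.4%, and for Krt27 37.9% and 29.6%. This share therefore set Krt71 and Krt28 apart but did not separate the type II from the type I chains. With each cell thinned to 2000 UMIs, Krt28 was found in 89.2% and 86.7% of cells, Krt25 in 55.1% and 50.4%, Krt27 in 34.3% and 31.8%, Krt73 in 31.4% and 34.3%, and Krt71 in 26.1% and 19.9%, so that Krt27 then stood beside the type II chains.

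**Figure D1:**
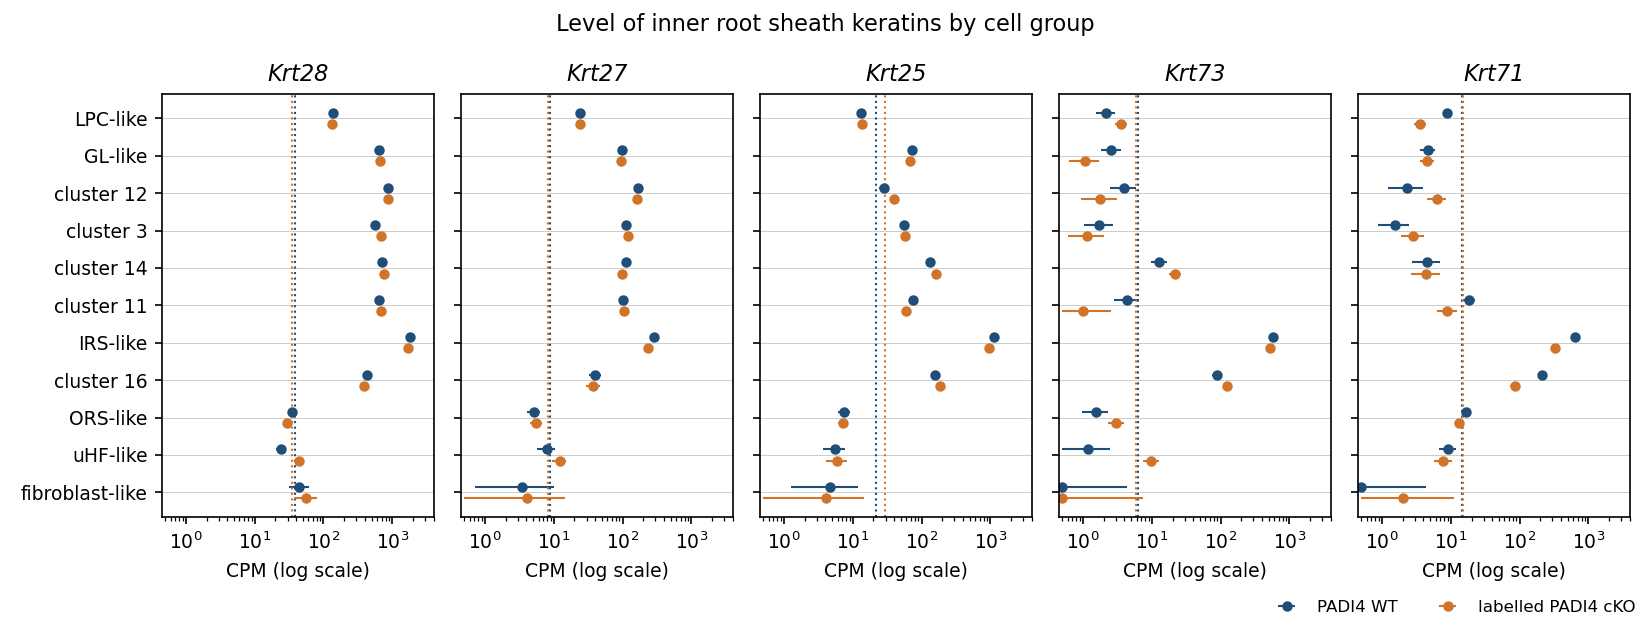
Level of 5 IRS keratins (CPM on a log scale) by cell group, for the PADI4 WT library in blue and the library labelled PADI4 cKO in orange, with bars for 95% counting intervals and values under 0.5 CPM drawn at 0.5; dotted lines give the level that free RNA could add to a cell, LPC is the lower proximal cup and uHF the upper hair follicle. Krt28 and Krt27 lay above the dotted lines in the GL-like cells and in clusters 3, 11, 12 and 14, whereas Krt71 and Krt73 rose far above them only in IRS-like cells and cluster 16 of the groups drawn, Krt73 being also at 12.7 and 21.9 CPM in cluster 14.

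Outside the IRS-like cells the members differed in how widely they were found. Krt28 was abundant in GL-like cells and in the clusters that shared most markers with the GL list. GL-like cells held 644 CPM (631 to 658) and 675 CPM (662 to 687), with a UMI in 93.0% and 96.7% of cells. Cluster 12 held 867 and 869 CPM, cluster 14 held 703 and 760 CPM, cluster 11 held 637 and 697 CPM and cluster 3 held 558 and 688 CPM. Krt27 took the same course at a lower level, with 99.5 and 95.5 CPM in GL-like cells and its highest value among these groups, 169 and 162 CPM, in cluster 12. As a result only 35.4% and 27.9% of the epithelial UMIs of Krt28, and 33.2% and 25.1% of those of Krt27, came from IRS-like cells. The GL-like cells with clusters 3, 11, 12, 14 and 16 supplied 55.2% and 61.3% of Krt28 and 56.0% and 61.7% of Krt27.

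Krt25 was intermediate. GL-like cells held 72.0 and 67.2 CPM, with a UMI in 44.0% and 48.8% of them, and 73.3% and 65.1% of its epithelial UMIs lay in IRS-like cells. In the hair shaft cluster 14 it reached 132 and 160 CPM, while cluster 12, where Krt28 and Krt27 were high, held only 28.2 and 40.2 CPM of Krt25. By the share of UMIs in IRS-like cells, the type II chains were the most restricted. Of the Krt73 UMIs 91.7% and 86.0%, and of the Krt71 UMIs 79.7% and 72.4%, lay in IRS-like cells. Epithelial groups other than these, the GL-like cells and clusters 3, 11, 12, 14 and 16 held 2.45% and 6.12% of the Krt73 UMIs. They held 11.3% and 17.4% of the Krt71 UMIs, the largest such shares of the 5 genes. GL-like cells held 4.64 and 4.55 CPM of Krt71 and 2.58 and 1.06 CPM of Krt73. Cluster 16, with its companion layer keratin, was the other site of the type II chains, with 212 and 85.1 CPM of Krt71 and 88.0 and 124 CPM of Krt73. The Krt71 value of the PADI4 WT library there rested largely on 1 of 129 cells, which held 307 of the 476 UMIs.

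Free RNA set the limit for the low values. Droplets with fewer than 100 UMIs held every one of the 7 genes, and with an estimated free share of 7.88% and 6.73% of a cell's UMIs they could add up to 37.9 and 34.6 CPM of Krt28, 21.6 and 29.1 CPM of Krt25, 14.4 and 15.0 CPM of Krt71, 8.82 and 8.32 CPM of Krt27 and 6.25 and 5.94 CPM of Krt73 to any cell. Fibroblast-like cells, which should lack these genes, held 44.4 and 56.4 CPM of Krt28, with a UMI in 16.4% and 17.2% of 55 and 29 cells. In each library 1 cell held much of this, 18 of 38 and 24 of 28 UMIs, so this background rests on few cells. Krt28 in ORS-like cells, at 35.2 and 29.2 CPM, lay below the level that free RNA could add. Krt71 in ORS-like cells (16.6 and 13.3 CPM) lay close to its free-RNA level, and Krt71 in GL-like cells lay below it. Fibroblast-like cells held only 0 and 1 Krt71 UMIs, 0 CPM (0 to 4.31) and 2.01 CPM (0.051 to 11.2). A Krt71 UMI was found in 17.9% and 15.6% of ORS-like cells but in 5.88% and 8.34% of GL-like cells. Whether ORS-like cells held Krt71 of their own was not tested. The Krt28, Krt27 and Krt25 of GL-like cells lay above the level of free RNA.

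GL-like cells, IRS-like cells and clusters 3, 11, 12, 14 and 16 were ranked by diffusion pseudotime to place the genes in order. Pseudotime was computed without the members, and ranks ran from 0 at a GL-like root to 100 within each library (3067 and 2735 cells). Onset was taken as the position at which a gene's level first reached 10% of its highest of 20 bins and stayed there up to that bin. Krt28 and Krt27 were already past this mark in the first bin, at 57.1% and 51.3% of their highest level for Krt28 and 28.3% and 48.5% for Krt27. Krt25 followed at positions 58.7 and 59.6, Krt73 at 62.0 and 72.5, and Krt71 at 70.0 and 72.8. Each of the 12 comparisons of a type I with a type II member, over both libraries, put the type I gene first, and 11 did so with 40 bins or with the mark at 25% and 10 with the mark at 50%. The last interval in the library labelled PADI4 cKO, between Krt73 and Krt71, was smaller than 1 bin of 5 positions, so the order of these 2 genes is not resolved there. With another root cell Krt71 came first in that library, at 65.4 against 68.4, as it did when each library was ordered alone, at 67.8 against 72.7.

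That order also contained hair shaft cells and cluster 16. On a path of GL-like cells, cluster 11 and IRS-like cells alone (1722 and 1504 cells), chosen after the clusters had been seen, the 5 genes came in the same order when all cells were counted. Krt28 was again on in the first bin. Krt27 passed its mark at 63.5 and 51.7, Krt25 at 75.1 and 80.9, Krt73 at 83.5 and 82.6 and Krt71 at 86.9 and 84.8. Krt73 and Krt71 were less than 1 bin apart in both libraries, as were Krt25 and Krt73 here in the library labelled PADI4 cKO and in the wider order in the PADI4 WT library, so these steps are not resolved. Without the PADI4 WT cell with most Krt71, Krt71 came before Krt73 in that library, at 83.3 against 83.7, and Krt25 came at 67.0. Krt27 had a first bin at 10.3% and 12.1% of its highest, so its position rests on a small dip below the mark. Positions are ranks within a library, and IRS-like cells made up different shares of the path in each, so a position in one library is not the same stage in the other.

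**Figure D2:**
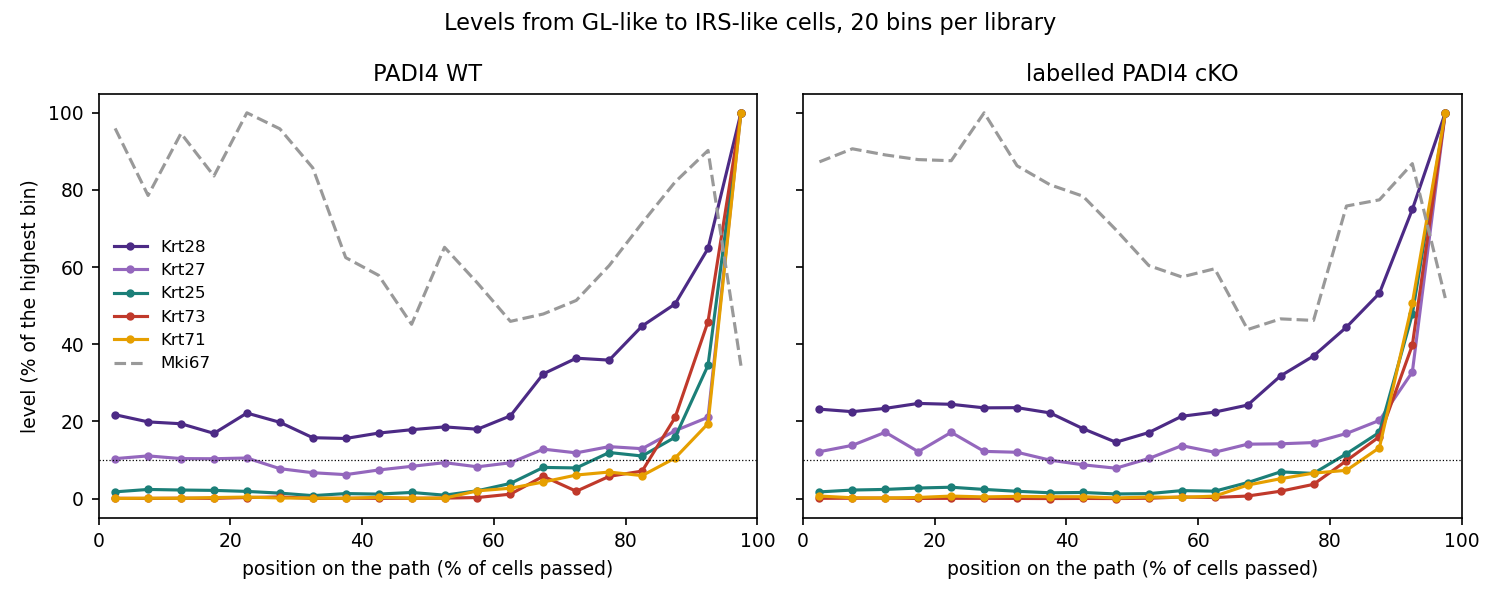
Level of each gene in 20 bins of equal cell number along the path from GL-like to IRS-like cells, as a percentage of its own highest bin, with the dotted line at 10%, for the PADI4 WT library on the left and the library labelled PADI4 cKO on the right. Krt28 started at 21.7% and 23.2% of its highest level, Krt71 and Krt73 stayed below 10% until after position 80, and all 5 keratins were highest in the last bin, where Mki67 was lower than in the bin before.

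Along this path the 5 genes went through unequal ranges. Krt28 stood at 761 and 728 CPM in the first bin and 3502 and 3141 CPM in the last. Krt27 went from 117 and 95.5 CPM to 1132 and 787 CPM, and Krt25 from 76.8 and 57.8 CPM to 4421 and 3353 CPM. The first bin thus held Krt25 above its free-RNA level, and its later onset is relative to its own highest level. Krt73 began at 1.71 and 1.22 CPM and ended at 2310.1 and 2143 CPM. Krt71 began at 0.569 and 7.91 CPM and ended at 3146 and 1221 CPM. Without the cell with most Krt71, the last bin of the PADI4 WT library held 2142 CPM of Krt71, 2347 CPM of Krt73, 3450.3 CPM of Krt25 and 3539 CPM of Krt28. Gata3, the sheath transcription factor, was present from the start (138 and 145 CPM) and ended at 864 and 901 CPM, and Tchh went from 2.27 and 2.43 CPM to 1826 and 376 CPM with an onset at 92.8 and 90.7, behind all 5 keratins. The same cell held 1661 of the 2085 Tchh UMIs of that bin, and without it Tchh stood at 377 CPM.

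Most cells on the path carried cell cycle transcripts when they carried IRS keratins. In the first bin 98.8% and 100% of the cells were assigned to S or G2M phase, and Mki67, a marker of cycling cells, stood at 1059 and 869 CPM. In the last bin 31.4% and 40.0% of the cells were so assigned and Mki67 stood at 380.1 and 518 CPM. Among GL-like cells with a Mki67 UMI, 93.7% and 97.4% also held a Krt28 UMI, at 647 and 678 CPM. These values were near those of all GL-like cells, 93.0% and 96.7% at 644 and 675 CPM. Among IRS-like cells, Krt71 stood at 449 and 306 CPM in those with a Mki67 UMI and at 2933 and 527 CPM in those without, and Krt25 at 929 and 854 CPM against 3629 and 1781 CPM. Without the cell with most Krt71, which held no Mki67 UMI, the PADI4 WT values in cells without Mki67 were 1314 CPM of Krt71 and 2049.9 CPM of Krt25. Krt28 differed less, with 1769.6 and 1660.3 CPM against 2344 and 2026 CPM. The cells without Mki67 were few, 65 of 595 and 69 of 472.

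The balance of the 2 chain types shifted along the same path. In GL-like cells type II chains made up 0.877% (0.713 to 1.07) and 0.665% (0.539 to 0.813) of IRS keratin UMIs. In IRS-like cells their share was 27.4% (27.0 to 27.9) and 23.0% (22.6 to 23.5). In the last bin of the path it reached 37.6% (36.9 to 38.4) and 31.6% (30.8 to 32.5). Cluster 16, which shared markers with the IRS list, had a share of 32.4% and 25.9%. The first of these includes the cell with 307 Krt71 UMIs. A share near that of IRS-like cells was also found in empty droplets (23.2% and 22.5%) and in ORS-like cells (27.5% and 27.9%), whose Krt71 and Krt28 lay close to the level of free RNA. Of GL-like cells 85.5% and 87.1% held type I UMIs alone, and 9.03% and 10.4% held both types. Of IRS-like cells 68.4% and 68.6% held both types, 29.4% and 29.2% type I alone, and 0.504% and 1.06% type II alone.

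**Figure D3:**
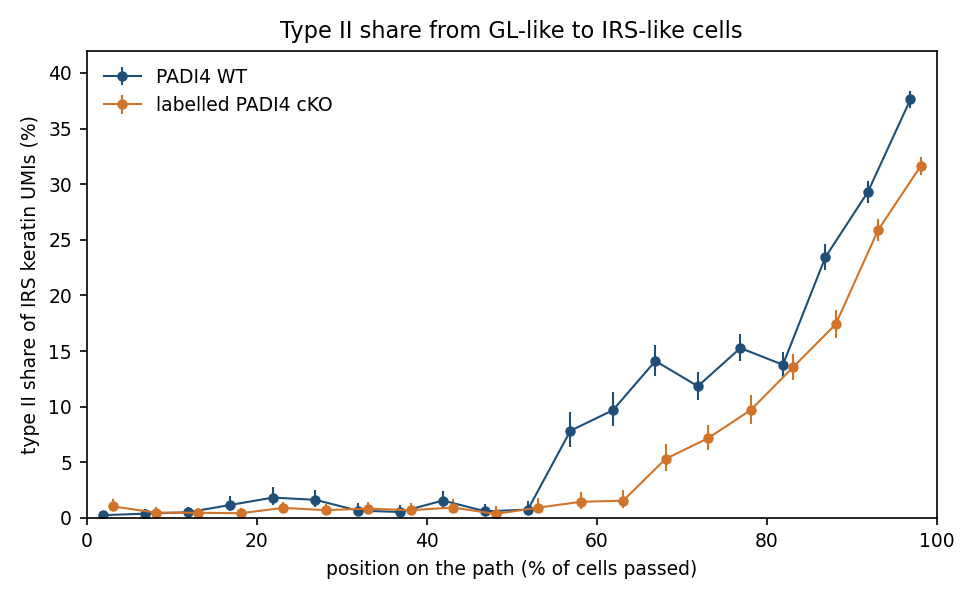
Type II share (Krt71, Krt72 and Krt73) of all UMIs of the 7 IRS keratins, in percent, in 20 bins along the path, with 95% counting intervals, for the PADI4 WT library in blue and the library labelled PADI4 cKO in orange. The share lay below 2% up to the middle of the path in both libraries and reached 37.6% and 31.6% in the last bin.

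Within IRS-like cells most cells with Krt71 also held type I chains, and so did most cells without it. A cell with a Krt71 UMI held a Krt28 UMI in 99.3% and 100% of cases and a Krt25 UMI in 90.7% and 90.0%, where cells without Krt71 did so in 96.0% and 95.2% for Krt28 and in 74.5% and 71.0% for Krt25. A cell with a Krt25 UMI held a Krt71 UMI in 50.1% and 48.3%. Between the 2 type II chains, 59.9% (53.7 to 65.8) and 61.5% (54.4 to 68.3) of Krt71 cells held a Krt73 UMI, and 53.5% and 48.8% of Krt73 cells held a Krt71 UMI. Across the 595 and 472 cells the Pearson correlation of log-normalized values, which share the depth of each cell, was 0.60 and 0.62 between Krt73 and Krt25, 0.55 and 0.56 between Krt71 and Krt25, and 0.18 and 0.28 between Krt71 and Krt73.

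The correlation between Krt71 and Krt73 was low but positive, and some cells held much of 1 of them and little of the other. At a limit of 10 UMIs per cell, set after the values were seen, 68 and 33 IRS-like cells passed for Krt71 alone, 111 and 92 for Krt73 alone, 41 and 39 for both, and 375 and 308 for neither. Of the cells with at least 30 Krt73 UMIs, 38 of 74 (51.4%, 39.4 to 63.1) and 26 of 50 (52.0%, 37.4 to 66.3) held no Krt71 UMI at all. Of those with at least 30 Krt71 UMIs, 7 of 45 (15.6%, 6.49 to 29.5) and 5 of 33 (15.2%, 5.11 to 31.9) held no Krt73 UMI. Over all IRS-like cells, a Krt71 UMI was found in 45.2% and 42.4% and a Krt73 UMI in 50.6% and 53.4%. The share without Krt71 among cells with much Krt73 was thus near that over all IRS-like cells. Cells with much Krt71 lacked Krt73 less often than all IRS-like cells did. The cell with most Krt71 held 1186 UMIs of it, 1171 of Krt25, 213 of Krt27, 21 of Krt28 and none of Krt73, and the next held 289 of Krt71, 292 of Krt25 and none of Krt73.

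**Figure D4:**
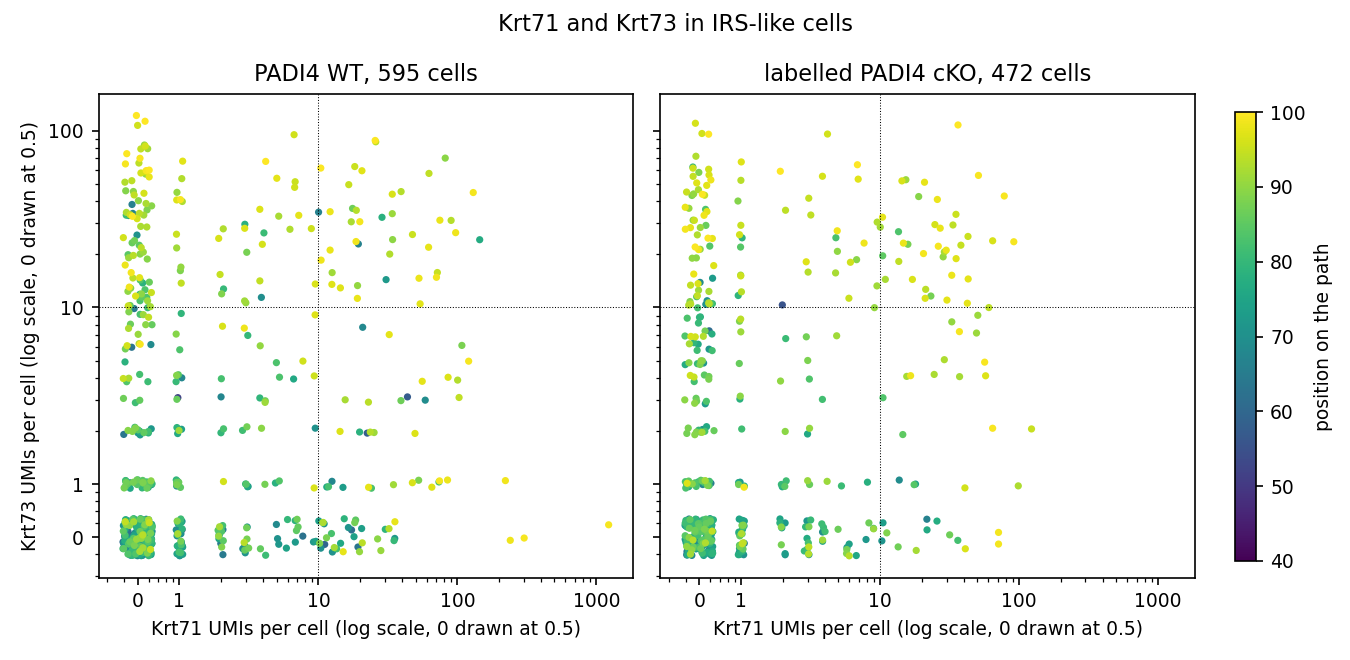
Krt71 against Krt73 UMIs in each IRS-like cell (log scales, 0 drawn at 0.5, points spread slightly at random), 595 cells of the PADI4 WT library on the left and 472 of the library labelled PADI4 cKO on the right, coloured by position on the path, with dotted lines at 10 UMIs. Late cells occur in the upper left (Krt73 alone, 111 and 92 cells), the lower right (Krt71 alone, 68 and 33 cells) and the upper right (both, 41 and 39 cells).

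Cells of these classes shared their type I chains but not all other genes. Krt28 stood at 1883 and 1834 CPM in the cells that passed for Krt71 alone and at 2967 and 2608 CPM in those that passed for Krt73 alone. Krt25 stood at 2853 and 1845 CPM in the former and 1415 and 1367 CPM in the latter, and was highest in the cells that passed for both, with 3129.7 and 3681 CPM. The value of 2853 CPM fell to 1913 CPM (1835 to 1993) without the cell with most Krt71. Tchh was found with Krt71: it stood at 1631 and 420.3 CPM in cells with Krt71 alone, 201 and 225 CPM in cells with both, and 36.2 and 42.8 CPM in cells with Krt73 alone. Without the cell with most Krt71, the first of these values was 261 CPM (233 to 292). Gata3 was more even, with 633 and 629.7 CPM against 898 and 816 CPM. The median positions on the path were 88.1 and 90.9 for Krt71 alone, 92.8 and 93.8 for Krt73 alone and 95.2 and 96.4 for both.

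Sub-clusters of IRS-like cells, again made without the members, differed in their type II chains. Sub-cluster 4, led by Tchh, Crym and Tesc (84 and 62 cells, median position 97.7), held the most Krt71, 3579 and 1669 CPM, with 1949 and 1874 CPM of Krt73, and 2452 CPM of Krt71 remained in the PADI4 WT library without its highest cell. Sub-cluster 5, led by Stfa3, Gas2l3 and Foxq1 (56 and 54 cells, median position 93.4), held 1947 and 1434 CPM of Krt73 but 272 and 189.5 CPM of Krt71. Sub-cluster 6, led by Eda and Col25a1 (42 and 28 cells), held 134 and 67.3 CPM of Krt71 with 1.54 and 4.08 CPM of Krt73, below the level of free RNA. In sub-cluster 3, led by Slc16a10, Dcn and Cldn10 (123 and 80 cells), the relation was the opposite, with 119 and 54.3 CPM of Krt73 and 17.0 and 18.3 CPM of Krt71, near the level of free RNA. Krt28 stood at 956 CPM or more in each of the 6 sub-clusters of both libraries. Doublet calls made up 8.97%, 7.17% and 7.27% of sub-clusters 1, 2 and 5 and 0.685% or less of the other 3.

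Genes with patterns like those of the members were taken by rule. Across 47 points, each a cluster of 1 library, the genes closest to the summed members in log2(CPM + 1) were the homeobox gene Dlx3 (Pearson r = 0.869), Sinhcaf (0.858), Cdh6 (0.854), Ttc9 (0.850) and Paqr5 (0.849), followed by Msx1, Tsfm, Mt4, Frmd5 and Suz12. These correlations share the clusters and the libraries and carry no test. Krt28 gave the most UMIs of the sum over all epithelial cells, and among the members it lay closest to Krt27 (0.91 across the same points), while Krt71 lay closer to Krt73 (0.77) than to Krt28 (0.36). Across IRS-like cells Krt73 was closest to Nkd2, a gene of the Wnt pathway (r = 0.708 and 0.685), to Itm2b and to Fbp1. Krt71 was closest to Cpm (0.513 and 0.530), the water channel gene Aqp3 and Dmkn. Nkd2 and Itm2b were among the 3 closest genes of Krt25, Krt27 and Krt28 also, but not of Krt71.

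Finally, the levels were compared between the libraries in IRS-like cells. The threshold was a log2 ratio of 0.5 in size, with at least 100 UMIs over both libraries. Krt71 was lower in the library labelled PADI4 cKO, with 2743 UMIs against 6097 and a log2 ratio of -0.95 (-1.02 to -0.89). The other 4 comparable members lay within the threshold: Krt27 at -0.28 (-0.36 to -0.20), Krt25 at -0.26 (-0.30 to -0.21), Krt73 at -0.14 (-0.19 to -0.08) and Krt28 at -0.09 (-0.13 to -0.06). Of 5 members compared, 1 thus passed below -0.5 and 0 above 0.5, where 1.79% and 1.33% of all 9655 genes compared did so. The median of the 5 was -0.26, beside 0.00 over all genes. Of the 24 other follicle genes listed, 15 could be compared, of which 0 passed above and 2 below, Tchh at -1.91 (-2.05 to -1.77) and the basal keratin Krt14 at -0.83 (-0.95 to -0.71). The ratio of Tchh rested on the PADI4 WT cell with most Krt71, which held 1661 of the 2246 Tchh UMIs, and was 0.03 (-0.15 to 0.20) without it.

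The ratio of Krt71 depended on which cells were counted. Its median per IRS-like cell was 0 UMIs in both libraries, and the share of cells with a UMI was 45.2% (41.2 to 49.3) and 42.4% (37.9 to 47.0). Cells with at least 100 Krt71 UMIs numbered 9 of 595 and 1 of 472. Without the cell with most, the log2 ratio of Krt71 was -0.64 (-0.71 to -0.57), and those of Krt25 and Krt27 were -0.09 and -0.17. Without the 5% of IRS-like cells latest on the path, an alternative added after seeing the data, the log2 ratio was -0.56, and with cells thinned to 2000 UMIs it was -0.37. Of the 9 cells with at least 100 UMIs, 8 held Y-linked UMIs and no Xist. Within the PADI4 WT library Krt71 stood at 768 CPM (746 to 791) in the 372 IRS-like cells with Y-linked UMIs alone, 573 CPM without the highest of them, and at 334 CPM (311 to 358) in the 154 with Xist alone. In the library labelled PADI4 cKO the 465 Xist cells held 330.3 CPM (318 to 343). Compared among cells with Xist and without Y-linked UMIs, the log2 ratio of Krt71 was -0.02 and that of Krt25 was 0.30, so Krt71 did not pass the threshold between cells matched in this way.

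**Figure D5:**
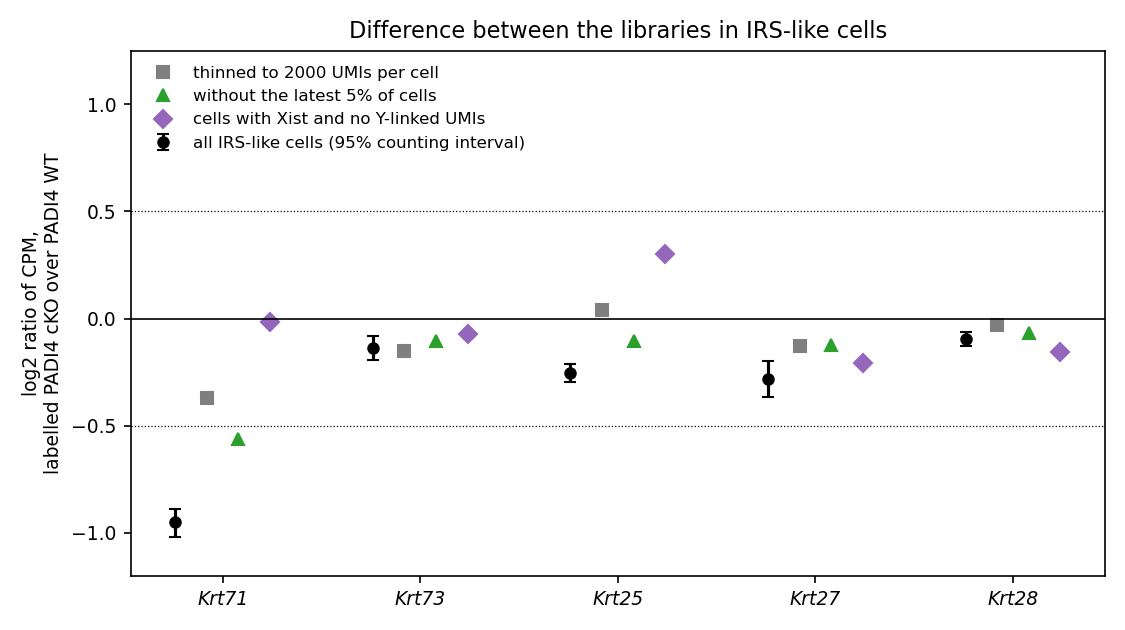
Log2 ratio of the level in IRS-like cells, labelled PADI4 cKO over PADI4 WT, for 5 IRS keratins: all cells with 95% counting intervals (circles), cells thinned to 2000 UMIs (squares), without the 5% of cells latest on the path (triangles), and cells with Xist but without Y-linked UMIs (diamonds), with dotted lines at 0.5 and -0.5. Krt71 moved from -0.95 to -0.37, -0.56 and -0.02, and no other gene passed a dotted line under any of the 4 settings.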

How the data were processed

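Single-cell RNA sequencing (Chromium 3′ v3.1) was available for 1 PADI4 WT library and 1 library labelled PADI4 cKO. The authors deposited unfiltered matrices of UMI counts per gene and barcode, not normalized. Per the file headers they came from Cell Ranger 7.1.0, and the submitters' processing notes name Cell Ranger, Scanpy and the build mm10. Whether intronic reads were counted is not given in the sources used here.

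A barcode was kept as a cell if it held between 2000 and 60000 UMIs and between 1000 and 8000 genes, if mitochondrial UMIs were no more than 20% and hemoglobin UMIs no more than 1%, and if it was not under the 5th or over the 99th percentile in ribosomal UMIs. Cells were corrected for cell cycle scores and clustered with scanpy 1.11.5 and leidenalg 0.10.2 (1000 variable genes, 50 principal components, 15 neighbors, resolution 1.0) without the keratins studied and without sex genes. A name needed at least 3 markers. Doublets were scored with Scrublet, whose own threshold called 0 PADI4 WT cells. The value it set for the second library was therefore applied to each. It marked 267 cells in each (3.28% and 3.59%), which were kept, and leaving them out was an alternative.

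Levels are UMIs summed over cells and scaled to 1000000 (CPM), with exact Poisson intervals, shares have exact Clopper-Pearson intervals and ratios exact conditional binomial intervals (scipy 1.17.1). Cells are not replicates and there was 1 library per genotype, so no test was run. Free RNA was measured in droplets with fewer than 100 UMIs. Ratios and onset were tested on simulated data: simulated log2 changes of 1 or 2 in size passed the threshold in 98% to 100% of genes, unchanged genes in 0.730%, and the largest error of an onset position was 1.80. The simulation held counting error alone, with the cells in a known order. These values therefore do not cover differences between cells, such as a single cell with many UMIs, or errors in the order of cells.

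The members, a list of 24 other sheath and follicle genes, and for likeness the 10 genes closest across clusters and the 3 closest to each member across IRS-like cells were named by rule. The members and lists were chosen with earlier results of these data known. In all, 21 alternatives were planned and 3 were added after the data had been seen.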

Additional observations from a re-analysis of the deposited data

How the results depend on the processing

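The summed level of the IRS keratins in IRS-like cells, 4450.0 and 3740.0 CPM, moved to 4560.0 and 3970.0 with a minimum of 1000 UMIs per cell, 3710.0 and 3200.0 with 4000 UMIs, 3780.0 and 3350.0 without doublets, 3560.0 and 3040.0 at resolution 0.5, 3270.0 and 2830.0 at resolution 2.0, 3890.0 and 3450.0 without cell cycle correction, 4570.0 and 4330.0 with thinned cells, 4360.0 and 3650.0 after subtraction of empty-droplet UMIs, and 3670.0 and 3350.0 without the latest 5% of IRS-like cells. It was 4190.0 in the PADI4 WT library without the cell with most Krt71, which like the setting before it was added after seeing the data. The type II share, 27.4% and 23.0%, was 24.6% and 20.4% with 4000 UMIs, 25.6% and 21.4% at resolution 2.0, and 23.9% and 21.5% without the latest 5%. It was 26.5% without doublets, 26.8% without cell cycle correction and 26.2% without the cell with most Krt71 in the PADI4 WT library, and 24.1% with thinned cells in the other. The share of Krt71 cells with a Krt73 UMI, 59.9% and 61.5%, was 53.4% in the PADI4 WT library at resolution 0.5 and at resolution 2.0, and 41.9% and 53.2% with thinned cells. The number of members below a log2 ratio of -0.5, which was 1, was 0 with thinned cells and 0 among cells with Xist and no Y-linked UMIs. Pairs of members in the same order of onset in both libraries numbered 10 of 10, 8 with the mark at 5%, 6 with the mark at 50%, and 9 with the mark at 25%, 40 bins, resolution 0.5, no cell cycle correction, another root, each library ordered alone, or cells ordered by the other IRS keratins. In the library labelled PADI4 cKO, Krt71 came before Krt73 under the last 5 of these settings and with the mark at 50%, as at 72.9 against 73.1 at resolution 0.5. In the PADI4 WT library Krt73 came before Krt25 with 40 bins (62.7 against 62.9) and with the mark at 25% (68.6 against 70.0) or 50% (76.9 against 90.7). The log2 ratio of Krt25, -0.26, was 0.04 with thinned cells and 0.30 among Xist cells. The causes were not tested. Of the values that answer a comparison, 86 others stayed within their error or, for counts, within 1.5 times the main count. No paired analysis was possible because there was 1 library per genotype, which also left no replicate to leave out. Depth limits Krt72 and Krt26, at 21 to 68 UMIs per library over all epithelial cells.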
